A study of Rattus norvegicus with 13 samples.

Results

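The clusters miR-106b-25 and miR-17-92 each hold several microRNAs (miRNAs) cut from 1 primary transcript, and each is named for miRNAs at its ends. Of the 350 rat miRNAs on the array, 8 were chosen by their systematic names. From miR-17-92 these were rno-miR-17-5p, rno-miR-18a, rno-miR-19a, rno-miR-19b and rno-miR-20a, and from miR-106b-25 they were rno-miR-106b, rno-miR-93 and rno-miR-25, written below without the prefix. Levels were measured in primary cortical cultures of postnatal day 1 rats, with 3 neuron, 4 astrocyte, 3 oligodendrocyte and 3 microglia arrays. No treatment, genotype or strain is named in the labels. Neurons were kept in Neurobasal medium with cytosine arabinoside, a nucleoside that kills dividing cells, to remove glia. Astrocytes were grown in MEM with horse serum and shaken overnight to remove other cells, so a cell that held on to the dish could stay. Microglia were the floating cells of mixed cultures, and oligodendrocytes were loosened by shaking and replated on poly-lysine. Sample labels state 10 days in vitro throughout, but by the written protocol microglia were harvested at 7 days. The study calls the arrays of a type biological replicates. Whether they came from separate litters is not given in the sources used here.

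The miR-17-92 transcript is induced by Myc and E2F factors, and its miRNAs act against brakes on growth, such as Cdkn1a and the death factor Bcl2l11, as shown in human and mouse cells. The miR-106b-25 miRNAs lie in an intron of Mcm7, which codes for a subunit of the helicase that licenses DNA replication, and they share several of these targets. In the developing mouse cortex miR-17-92 is known for sustaining the division of neural progenitors, and miR-106b-25 for effects on neural stem cells.

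The mature sequences from RefSeq (GRCr8) show which members of the 2 clusters can be compared by seed. The seed, bases 2 to 8 counted from the 5′ end, is in capitals.
miR-17-5p: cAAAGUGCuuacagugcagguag
miR-20a: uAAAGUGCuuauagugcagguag
miR-106b: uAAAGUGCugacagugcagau
miR-93: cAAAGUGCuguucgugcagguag
miR-18a: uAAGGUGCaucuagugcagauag
miR-19a: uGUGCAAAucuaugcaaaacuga
miR-19b: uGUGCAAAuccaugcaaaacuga
miR-25: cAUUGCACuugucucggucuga
miR-92a: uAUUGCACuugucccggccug

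The 4 miRNAs with the seed AAAGUGC come from both clusters: miR-17-5p and miR-20a from miR-17-92, and miR-106b and miR-93 from miR-106b-25. The seed AUUGCAC of miR-25 recurs in miR-92a, which lies in the miR-17-92 transcript but is outside the 8 and is shown for that comparison. The seeds of miR-18a (AAGGUGC) and of miR-19a and miR-19b (GUGCAAA) occur in the miR-17-92 cluster alone among the 8. miR-17-5p and miR-20a differ by 2 base changes, and miR-19a and miR-19b by 1, so a probe for one may also take up the other, which was not tested. miR-17-5p differs from miR-93 by 3 changes and from miR-106b by 5.

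By the coordinates in the array files (build rn4), the probed bases of the 5 miR-17-92 members lie at chr15:99853755-99854395, within 641 bases. Those of the 3 miR-106b-25 members lie at chr12:17607981-17608448, within 468 bases. In RefSeq's GRCr8 annotation the hairpin genes Mir25, Mir93 and Mir106b all lie inside Mcm7 (chr12:22155921-22163320). The hairpins Mir17 to Mir92a1 lie at chr15:98587848-98588632. RefSeq lists a second locus on chromosome X with the same mature sequence for miR-17-5p, miR-19b and miR-92a, so the signal of these 3 cannot be assigned to chromosome 15 alone.

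Each array received 100 ng of total RNA. The summed miRNA intensity ranged from 276438 to 514270 on neuron arrays and from 107624 to 300152 on the glial arrays. Neuron arrays detected 241 to 258 miRNAs and glial arrays 160 to 208. Levels are given as log2 of the signal relative to the 75th percentile of the same array, over the 119 miRNAs detected on all 13 arrays. A level describes how bright 1 miRNA was on 1 array, and levels of different miRNAs are not set against each other, since probes differ in brightness. Neurons and oligodendrocytes were on one slide, and astrocytes and microglia on the other. In the pairs neurons with oligodendrocytes and astrocytes with microglia the slide was shared, and in the other 4 pairs slide and cell type cannot be told apart.

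The labelled cell types were set against miRNA markers. The summed level of 6 neuronal markers (miR-124, miR-128, miR-129, miR-132, miR-137 and miR-218) was 4.35 to 4.48 on neuron arrays, -1.09 to -0.89 on astrocyte arrays and -2.52 to -2.16 on microglia arrays. On oligodendrocyte arrays it was -0.07, 1.87 and 0.42, so array 2 carried the most neuronal signal of that group. The summed level of 4 oligodendrocyte markers (miR-219-5p, miR-219-2-3p, miR-338 and miR-338*) was 2.84 to 3.64 on oligodendrocyte arrays and 1.23 to 1.41 on astrocyte arrays. It was -0.53 to -0.38 on neuron arrays and -2.73 to -2.25 on microglia arrays. The 4 myeloid markers (miR-142-3p, miR-142-5p, miR-146a and miR-223) summed to 4.74 to 4.93 on microglia arrays, 0.88 to 0.93 on astrocyte arrays and -5.38 to -5.11 on neuron arrays, where miR-142-5p was detected on none. On oligodendrocyte arrays the myeloid sum was -0.73, 0.72 and -0.37, again highest on array 2. For astrocytes no defining marker was at hand: miR-449a and miR-143, which mark ciliated and mural cells, summed to 0.26 to 0.56 on astrocyte arrays and to at most -3.60 elsewhere. In cultures of mixed cells, fewer cells of a type and less of a miRNA per cell cannot be told apart.

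All 8 members were detected on 13 of 13 arrays, so none depended on a filter on low values. Each was read by 20 spots of 2 probes, and of 2080 spot readings 98.9% were well above background and 0 were saturated. All 8 differed among the 4 cell types in limma's F test, as did 95.5% of the 268 miRNAs tested. The share for all miRNAs is close to that of the members, so the F test does not set them apart.

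All 8 members were lowest in neurons. The miR-17-92 members were 4.59-fold to 13.2-fold lower in neurons than in oligodendrocytes, and the miR-106b-25 members 1.76-fold to 2.65-fold. With scaling over all miRNAs the folds were 9.21 to 26.5 and 3.55 to 5.32, and without scaling 3.47 to 9.96 and 1.33 to 2.003, so the sizes depended on the scaling while the ranges of the 2 clusters stayed apart. By the means, the 5 miR-17-92 members were highest in oligodendrocytes and the 3 miR-106b-25 members in microglia. Several of these top places did not pass in limma. Oligodendrocytes and microglia did not differ for miR-18a, miR-19a, miR-19b or miR-20a (adjusted p of 0.16 to 0.682) or for miR-106b (0.0818). Microglia and astrocytes did not differ for miR-25 (0.169). Without scaling the miR-106b-25 members were highest in astrocytes, by 0.37 to 0.53 in log2 over microglia.

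**Figure D1:**
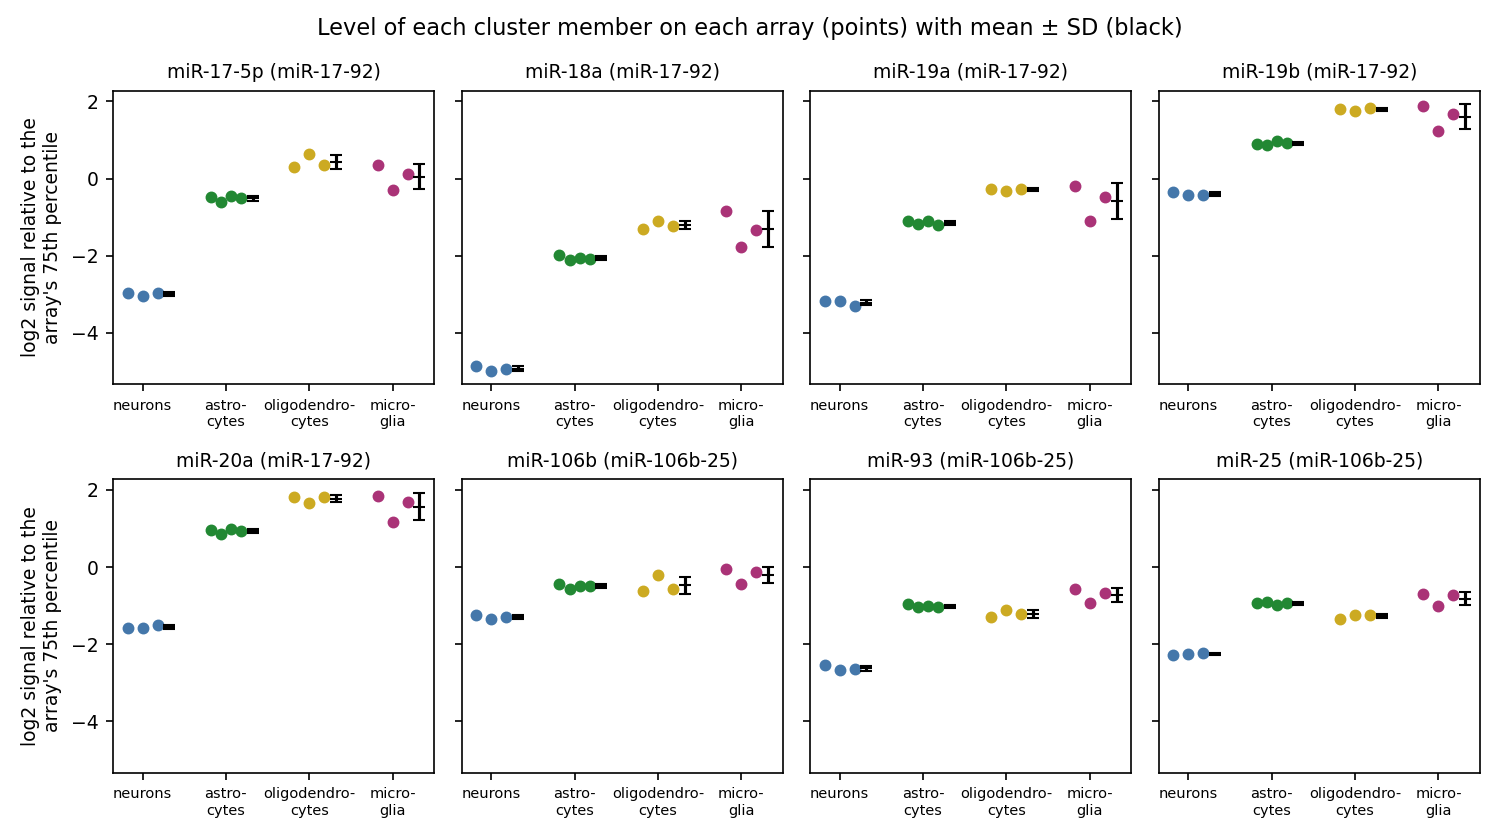
Level of each of the 8 members on each of the 13 arrays (points, log2 of the signal relative to the array's 75th percentile), by cell type, with the group mean ± SD in black. In every panel the 3 neuron arrays lie below all 10 glial arrays, and the share of all tested miRNAs for which this holds is not given. Heights in different panels are not comparable, since probes differ in brightness.

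miR-17-5p gave its name to the cluster, and with miR-20a it is known to act on E2F1 and Cdkn1a in human cells. Its level was -2.98, -3.04 and -2.96 on the neuron arrays, -0.48, -0.60, -0.46 and -0.51 on the astrocyte arrays, 0.29, 0.64 and 0.35 on the oligodendrocyte arrays, and 0.34, -0.30 and 0.11 on the microglia arrays. The neuron arrays were far below the rest, the astrocyte arrays lay between them and the other glia, and the arrays of oligodendrocytes and microglia overlapped. The means were -2.99 ± 0.04 (SD, n = 3), -0.51 ± 0.06 (n = 4), 0.43 ± 0.19 (n = 3) and 0.05 ± 0.32 (n = 3).

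miR-20a, the nearest of the 8 to miR-17-5p in sequence, had levels of -1.59, -1.57 and -1.50 in neurons, 0.96, 0.87, 0.98 and 0.95 in astrocytes, 1.82, 1.66 and 1.82 in oligodendrocytes, and 1.85, 1.16 and 1.69 in microglia. The same picture held, with microglia array 2 below the oligodendrocyte arrays and microglia array 1 above them. Its neuronal deficit against astrocytes, -2.49 in log2, lay beside the -2.48 of miR-17-5p.

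miR-18a, known for lowering Ctgf in mouse tumour cells, had the largest neuronal deficit of the 8. Its level was -4.87, -4.99 and -4.93 in neurons, -1.99, -2.10, -2.05 and -2.09 in astrocytes, -1.30, -1.10 and -1.23 in oligodendrocytes, and -0.83, -1.77 and -1.34 in microglia. Neurons and astrocytes each stood apart from all other arrays, while the microglia arrays spread on both sides of the oligodendrocyte arrays.

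miR-19a and miR-19b share the seed that drives lymphoma growth in mice. The level of miR-19a was -3.18, -3.18 and -3.30 in neurons, -1.10, -1.19, -1.10 and -1.21 in astrocytes, -0.26, -0.32 and -0.27 in oligodendrocytes, and -0.20, -1.10 and -0.47 in microglia. Microglia array 2 fell among the astrocyte arrays here. The level of miR-19b was -0.35, -0.42 and -0.43 in neurons, 0.90, 0.87, 0.97 and 0.93 in astrocytes, 1.81, 1.75 and 1.83 in oligodendrocytes, and 1.89, 1.24 and 1.68 in microglia. The neuron and astrocyte arrays of miR-19b were again apart from the others, but the distance of neurons was the smallest in its cluster.

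miR-106b is known to act on Cdkn1a, the inhibitor of the cell cycle kinases, in human cells. Its level was -1.24, -1.35 and -1.29 in neurons, -0.44, -0.57, -0.48 and -0.50 in astrocytes, -0.63, -0.22 and -0.57 in oligodendrocytes, and -0.04, -0.44 and -0.13 in microglia. Neurons were lowest on every array, and the arrays of the 3 glial types overlapped in each pair.

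miR-93 has the same seed as miR-106b. Its level was -2.55, -2.67 and -2.65 in neurons, -0.96, -1.05, -1.01 and -1.04 in astrocytes, -1.31, -1.11 and -1.23 in oligodendrocytes, and -0.57, -0.93 and -0.68 in microglia. No arrays of 2 types overlapped, with microglia above astrocytes, astrocytes above oligodendrocytes and neurons lowest.

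miR-25, known to lower Bcl2l11 in human cells, had levels of -2.28, -2.25 and -2.22 in neurons, -0.94, -0.91, -0.99 and -0.94 in astrocytes, -1.34, -1.24 and -1.25 in oligodendrocytes, and -0.71, -1.02 and -0.72 in microglia. The oligodendrocyte arrays were below all astrocyte and microglia arrays, and microglia array 2 fell just below the astrocyte arrays.

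The order of the means was oligodendrocytes, microglia, astrocytes and neurons for each of the 5 miR-17-92 members. Oligodendrocytes and microglia, the upper neighbours in that order, overlapped in all 5. The order was microglia, oligodendrocytes, astrocytes and neurons for miR-106b, in which no neighbouring glial pair differed by the test. For miR-93 and miR-25 it was microglia, astrocytes, oligodendrocytes and neurons. The upper neighbours differed for miR-93 and did not pass for miR-25, and the lower glial neighbours differed for miR-25 and did not pass for miR-93.

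Neurons were compared with each glial type in the limma fit over all 268 tested miRNAs. All 8 members were lower in neurons than in astrocytes, where 25.4% of tested miRNAs were lower. All 8 were lower than in oligodendrocytes, against 19.8%, and all 8 were lower than in microglia, against 31%. The median member difference, neurons minus the other type, was -1.84 for astrocytes, -2.57 for oligodendrocytes and -2.32 for microglia. The median of all tested miRNAs was 0.54, 0.79 and 0.58 in the same comparisons. That median depended on the scaling: it was -0.27, -0.07 and -0.38 with scaling over all miRNAs and -0.32, 0.00 and -0.25 with quantile normalization, while all 8 members stayed below it and below 0.

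Against oligodendrocytes, with which neurons shared a slide, miR-18a was 13.2-fold lower in neurons (log2 difference -3.72, SE 0.18, limma adjusted p = 5.82e-09). miR-17-5p was 10.7-fold lower (-3.42, SE 0.144, adjusted p = 1.81e-09) and miR-20a 10.01-fold lower (-3.32, SE 0.143, adjusted p = 2.06e-09). miR-19a was 7.65-fold lower and miR-19b 4.59-fold lower. In the Mcm7 intron cluster, miR-93 was 2.65-fold lower (-1.41, SE 0.0916, adjusted p = 7.31e-08), miR-25 1.97-fold (-0.97, SE 0.0813, adjusted p = 5.98e-07) and miR-106b 1.76-fold (-0.82, SE 0.122, adjusted p = 7.79e-05). The smallest miR-17-92 fold was thus above the largest miR-106b-25 fold in that pair. Without scaling miR-106b (-0.42, adjusted p = 0.276) and miR-25 (-0.57, adjusted p = 0.146) no longer passed in that pair.

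Against astrocytes the miR-17-92 members were 2.49-fold (miR-19b) to 7.32-fold (miR-18a) lower in neurons, and the miR-106b-25 members 1.73-fold (miR-106b) to 3.04-fold (miR-93). The 2 ranges overlapped through miR-19b, whose fold was below that of miR-93. Against microglia the folds were 4.01 to 12.3 and 2.12 to 3.72. Adjusted p for all 16 of these differences was at most 6.32e-05 in limma. No neuron array overlapped an array of any glial type for any member. The share of all tested miRNAs without such overlap is not given, here or in other pairs, so lack of overlap does not set the members apart.

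A difference of at least 1 in log2 from each of the other 3 types was found in neurons for 6 of the 8 members, all 5 of miR-17-92 and miR-93, and in 7.46% of tested miRNAs. miR-25 missed this limit through oligodendrocytes (-0.97), and miR-106b missed it in astrocytes and oligodendrocytes. Which members met the limit depended on the scaling. All 8 met it with scaling over all miRNAs, with quantile normalization and in the deposited table. The member difference of smallest size was -1.75, -1.36 and -1.27 in these settings. Without scaling miR-93 also missed it, through microglia (-0.94), while all 5 miR-17-92 members met it. The share of tested miRNAs is given for the main scaling only.

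**Figure D2:**
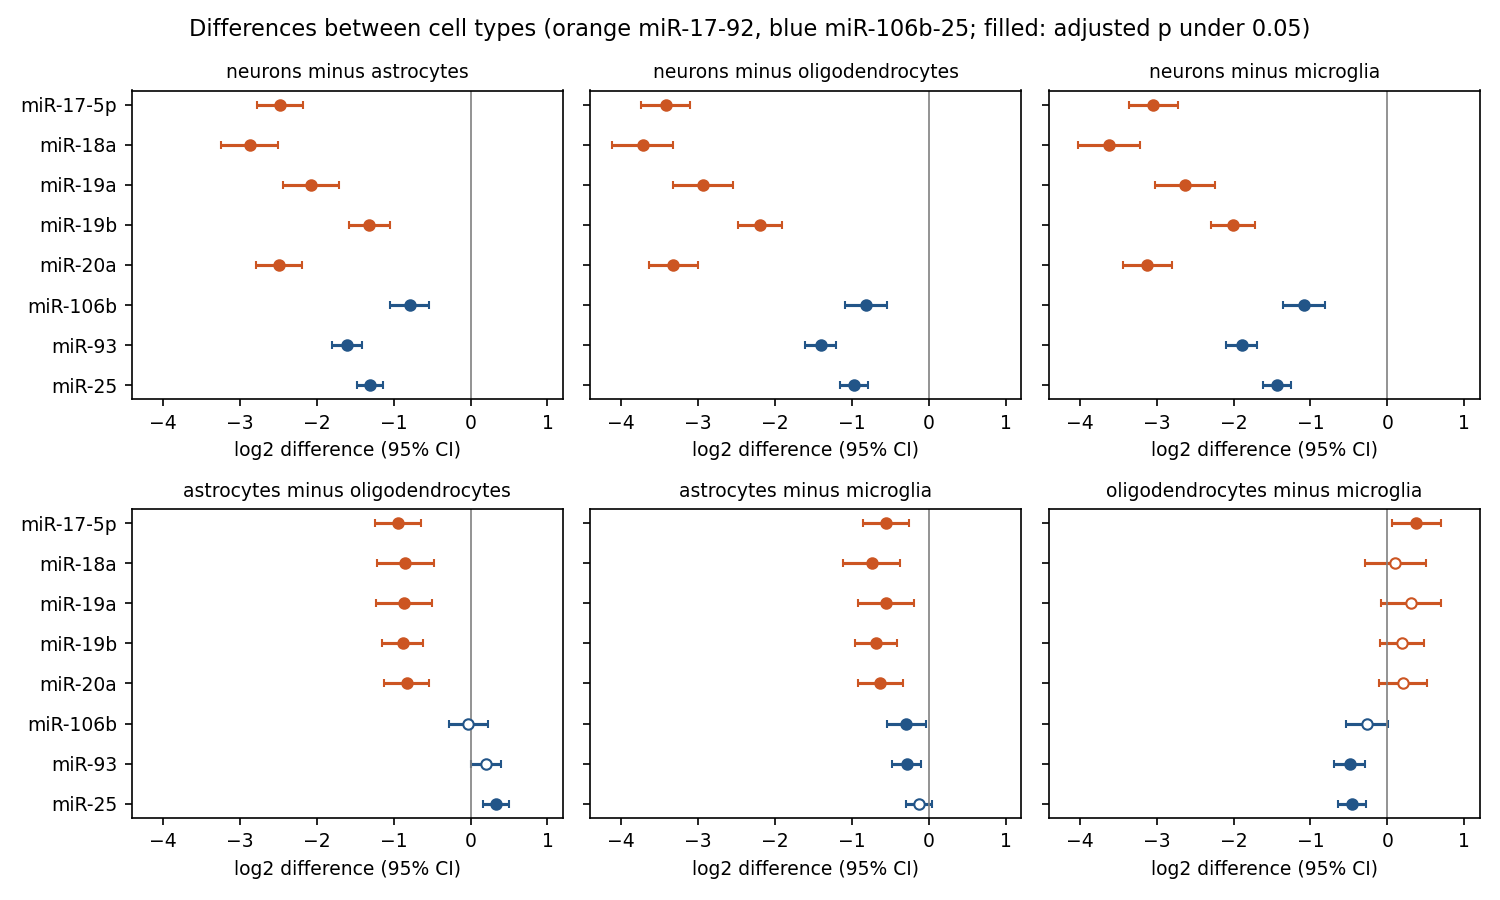
Log2 differences between cell types for the 8 members in each of the 6 pairs, with 95% confidence intervals from limma; filled points passed at an adjusted p under 0.05. All 8 points lie left of 0 in the 3 upper panels, and in the panel of astrocytes minus oligodendrocytes the 5 miR-17-92 members lie between -0.94 and -0.83 while the 3 miR-106b-25 members lie between -0.03 and 0.33.

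The 3 glial types were compared in the same fit. Astrocytes had lower levels than oligodendrocytes for all 5 miR-17-92 members, against 30.6% of tested miRNAs, and for 0 of the 3 miR-106b-25 members. miR-17-5p was 1.92-fold lower in astrocytes (-0.94, SE 0.135, adjusted p = 0.000116) and miR-20a, the smallest, 1.78-fold (-0.83, SE 0.134, adjusted p = 0.000269). No array of astrocytes overlapped one of oligodendrocytes for these 5, with no share over all tested miRNAs given. Without scaling 0 of these 5 passed. miR-25 was instead 1.26-fold higher in astrocytes (0.33, SE 0.076, adjusted p = 0.00318), against 25.7% of tested miRNAs. That call was lost with normexp background correction (adjusted p = 0.0633), with scaling over all miRNAs (0.102) and without scaling (0.33).

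The miR-93 difference between astrocytes and oligodendrocytes was 0.20 (95% CI 0.01 to 0.39, adjusted p = 0.0677), with no overlap of arrays. It passed without oligodendrocyte array 2 (0.25, adjusted p = 0.0403), which carried the highest neuronal and myeloid sums of its group, and without microglia array 1 (adjusted p = 0.0478) or microglia array 2 (adjusted p = 0.0186). With all arrays kept it passed with quantile normalization (0.34, adjusted p = 0.00113) and in the deposited table (0.33, 0.00334). It also passed with the brightest probe (0.27, 0.0249) and in a fit of the 2 types alone (0.0184). The difference did not pass with normexp (0.345), scaling over all miRNAs (0.36) or no scaling (0.524). The miR-106b difference was -0.03 (95% CI -0.28 to 0.23, adjusted p = 0.973), and it was 0.10 (adjusted p = 0.465) without oligodendrocyte array 2.

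Astrocytes and microglia shared a slide. Astrocytes were lower for 7 of the 8 members, against 35.8% of tested miRNAs: all 5 of miR-17-92, miR-93 and miR-106b. Without scaling 0 passed and 5 of these 7 changed sign (0.37 for miR-93 and miR-106b, 0.10 for miR-17-5p and miR-19a, 0.028 for miR-20a), and 5 passed with normexp, in the deposited table and without microglia array 1. The miR-17-92 differences ranged from -0.75 (miR-18a, adjusted p = 0.0021) to -0.56 (miR-19a, SE 0.164, adjusted p = 0.0106), and the arrays overlapped for miR-19a. miR-93 was 1.22-fold lower in astrocytes (-0.29, SE 0.0857, adjusted p = 0.0108). The miR-93 call was lost without microglia array 1 (-0.21, adjusted p = 0.0549), with normexp (adjusted p = 0.059) and in the deposited table (-0.16, adjusted p = 0.0893), and that of miR-19a in a fit of the 2 types alone (adjusted p = 0.0678).

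miR-106b was 1.23-fold lower in astrocytes than in microglia (-0.29, SE 0.114, adjusted p = 0.0418) with overlapping arrays. Leaving out 1 array took that call above the threshold for 3 of 3 neuron, 4 of 4 astrocyte and 2 of 3 microglia arrays and for oligodendrocyte array 3. The adjusted p then reached 0.162 without microglia array 1, where the difference was -0.21. With quantile normalization the difference was -0.11 (adjusted p = 0.354), as in the deposited table (adjusted p = 0.36), and the call was also lost with normexp (0.074), the brightest probe (0.0586) and no filter (0.0521). The miR-25 difference was -0.13 (95% CI -0.29 to 0.04, adjusted p = 0.169), and -0.23 without microglia array 2 (adjusted p = 0.00349).

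Whether oligodendrocytes and microglia differed less for the larger cluster depended on the scaling. With the main scaling oligodendrocytes minus microglia was 0.10 to 0.37 for miR-17-92 and -0.49 to -0.27 for miR-106b-25. Without scaling it was 0.66 to 0.93 and 0.066 to 0.29, so the larger cluster then differed more. Only miR-17-5p of the 8 was higher in oligodendrocytes (1.3-fold, 0.37, SE 0.144, adjusted p = 0.0423), against 32.1% of tested miRNAs. Its arrays overlapped. miR-18a, miR-19a, miR-19b and miR-20a had differences of 0.10 to 0.31, with 95% intervals that reached from -0.30 to 0.69.

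Leaving out single arrays changed this comparison. Without microglia array 2, the lowest microglia array for all 8 members, the miR-17-5p difference was 0.20 (adjusted p = 0.148), that of miR-18a -0.13 and that of miR-20a -0.002. Without microglia array 1, the highest of its group, all 5 miR-17-92 members were higher in oligodendrocytes, by 0.34 to 0.50 in the 4 that had not passed. The miR-17-5p call was also lost without any 1 of the 3 neuron arrays, any 1 of the 4 astrocyte arrays, oligodendrocyte array 2 or 3, or microglia array 3, with an adjusted p of at most 0.149.

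miR-93 and miR-25 were lower in oligodendrocytes than in microglia, against 29.5% of tested miRNAs. miR-93 was 1.4-fold lower (-0.49, SE 0.0916, adjusted p = 0.000587) and miR-25 1.37-fold (-0.46, SE 0.0813, adjusted p = 0.000401), with no overlap of arrays. Without scaling these differences were 0.066 and 0.099. The miR-106b difference was -0.27 (adjusted p = 0.0818). It was -0.39 without oligodendrocyte array 2 (adjusted p = 0.00846) and -0.38 without microglia array 2 (adjusted p = 0.0122).

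The 2 clusters were then compared within arrays, where scaling cancels. Each member was centred on its own mean over the 13 arrays, and the mean of the 3 miR-106b-25 members was taken from that of the 5 miR-17-92 members. The result was -1.12, -1.10 and -1.12 on the neuron arrays, -0.11, -0.13, -0.05 and -0.10 on the astrocyte arrays, 1.02, 0.84 and 0.97 on the oligodendrocyte arrays, and 0.51, 0.10 and 0.30 on the microglia arrays. Every array of a type was thus apart from every array of the other types. From lowest to highest the order was neurons, astrocytes, microglia and oligodendrocytes.

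**Figure D3:**
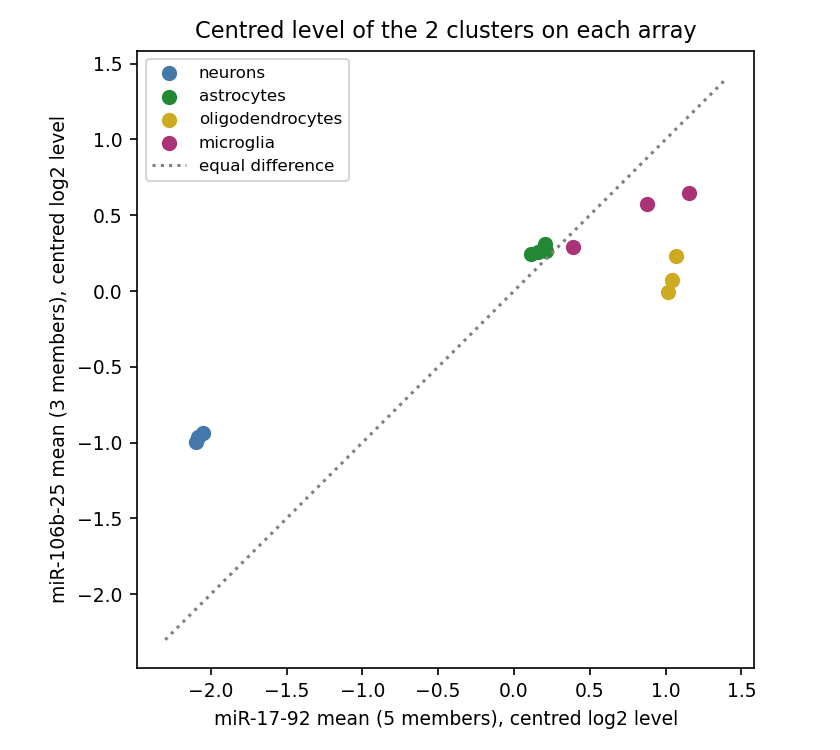
Mean centred log2 level of the 3 miR-106b-25 members (vertical) against that of the 5 miR-17-92 members (horizontal), 1 point per array; the dotted line marks equal values. Neuron arrays lie above the line at horizontal values of -2.10 to -2.05, and oligodendrocyte arrays lie below it, at horizontal values of 1.02 to 1.07 and vertical values of -0.01 to 0.23.

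The mean of the miR-17-92 members spread from -2.10 to 1.15 over the arrays and that of the miR-106b-25 members from -0.998 to 0.646. Among oligodendrocyte arrays the miR-17-92 mean was 1.02, 1.07 and 1.04 and lay close together, whereas the miR-106b-25 mean was -0.01, 0.23 and 0.08, highest on array 2. Array 2 also had the highest neuronal and myeloid marker sums of that group, and their part in this was not tested.

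All 15 pairs of a miR-17-92 member with a miR-106b-25 member were tested for neurons against the 10 other arrays. Neurons were picked because an earlier report on these data named them. The pairs reuse the same 8 miRNAs and are not independent, and no share over pairs of other tested miRNAs is given. The within-array difference was lower in neurons in 13 of 15 pairs, with no overlap of arrays, by an exact two-sided permutation test over arrays (exact p = 0.00699, the smallest that 286 arrangements allow; adjusted over the 15 pairs, p = 0.00807). The largest difference, neurons minus the others, was -2.46 in log2 for miR-18a against miR-106b. The remaining pairs were miR-19b with miR-93 (-0.15, exact p = 0.685) and miR-19b with miR-25 (-0.54, exact p = 0.0979, adjusted p = 0.105), so miR-19b did not pass against either.

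The 3 neuron arrays were thus set apart from the others as a group by most pairs. The same within-array difference was 0.80 to 1.27 higher in oligodendrocytes than in astrocytes, without overlap in 15 of 15 pairs. With 3 against 4 arrays an exact two-sided permutation test cannot go below 0.0571, and no p is given for these pairs. The lowest and highest of these 15 differences ranged from 0.60 to 2.07 over the alternative settings. On the slide they shared, neurons minus oligodendrocytes gave -2.90 to -0.79, and on the other slide astrocytes minus microglia gave -0.62 to -0.26, without overlap in 13 of 15. The last range was -0.47 to -0.15 without microglia array 1 and -1.06 to -0.24 with quantile normalization.

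miRNAs with the same seed differed between the clusters. The within-array difference of miR-17-5p from miR-106b changed by -2.04 in neurons relative to the other arrays, that of miR-17-5p from miR-93 was -1.30, and those of miR-20a were -2.04 and -1.30 (exact p = 0.00699 for each of the 4). Between neurons and oligodendrocytes, miR-17-5p and miR-20a differed by -3.42 and -3.32 in log2, while miR-106b and miR-93 differed by -0.82 and -1.41. Within miR-17-92, miR-18a has another seed and differed by -3.72.

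The mean centred level of miR-17-5p and miR-20a was 1.08, 1.17 and 1.10 in oligodendrocytes and 0.15 to 0.28 in astrocytes. For miR-106b and miR-93 it was 0.02, 0.32 and 0.09 in oligodendrocytes and 0.18 to 0.29 in astrocytes. The first pair stood apart between these types and the second overlapped.

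miR-92a, the last miRNA of the miR-17-92 transcript and outside the 8, has the seed of miR-25 and differs from it by 4 base changes. Its level was -2.12, -2.23 and -1.88 in neurons, 0.09, 0.15, 0.06 and -0.05 in astrocytes, 0.79, 1.01 and 0.78 in oligodendrocytes, and 0.65, 0.12 and 0.46 in microglia. It followed the order of the miR-17-92 members. In neurons miR-92a was 7.65-fold lower than in oligodendrocytes (-2.94, SE 0.137, adjusted p = 4.3e-09), and miR-25 1.97-fold. Astrocytes were 1.74-fold below oligodendrocytes for miR-92a (-0.80, adjusted p = 0.000271) and 1.26-fold above them for miR-25.

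**Figure D4:**
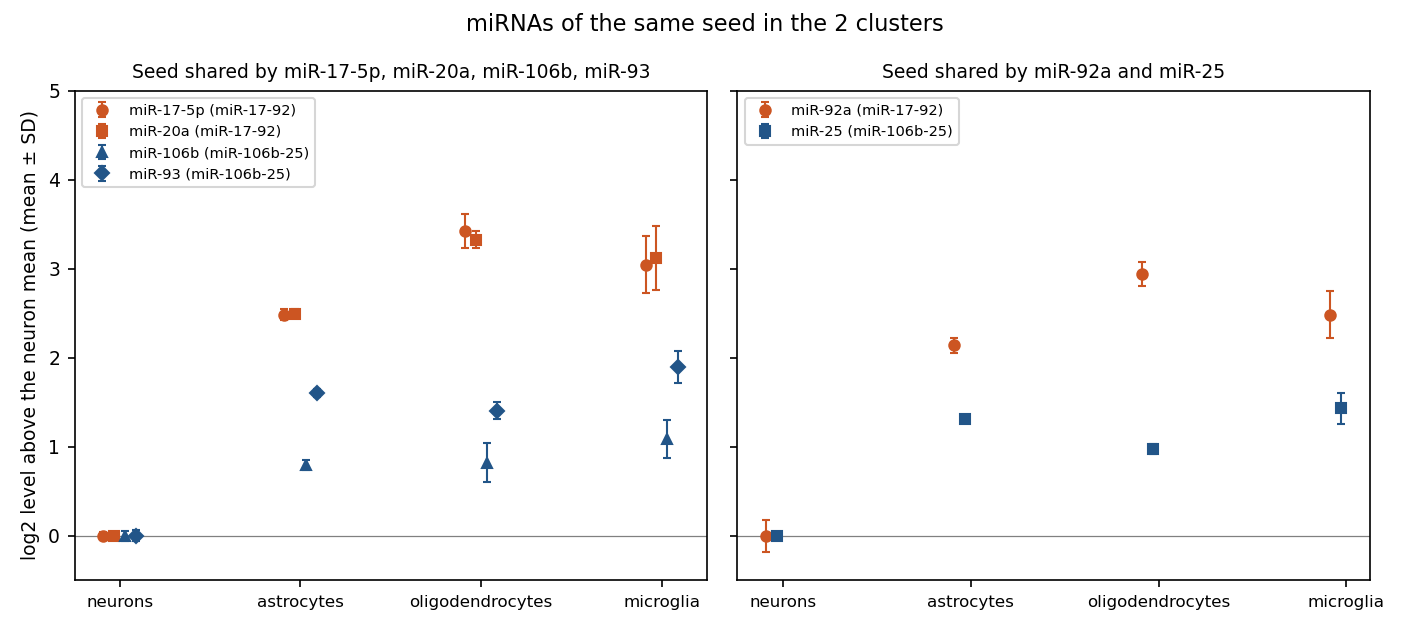
Log2 level above the neuron mean (mean ± SD; n = 3 neuron, 4 astrocyte, 3 oligodendrocyte and 3 microglia arrays) for miRNAs of the same seed, orange for the miR-17-92 transcript and blue for miR-106b-25. In oligodendrocytes miR-17-5p and miR-20a lie 3.42 and 3.32 above neurons and miR-106b and miR-93 0.82 and 1.41 above; miR-92a lies 2.94 above and miR-25 0.97 above.

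Other strands and relatives formed a list of 11 miRNAs on the array, of which 8 were tested. miR-20b-3p, miR-25* and miR-363* were detected on no array. Of the 8, 5 were lower in neurons than in astrocytes (against 25.4% of tested miRNAs), 7 than in oligodendrocytes (19.8%) and 7 than in microglia (31%). By contrast miR-92b was higher in neurons than in oligodendrocytes (against 58.2% of tested miRNAs) and microglia (against 52.2%). Between astrocytes and oligodendrocytes 5 were lower in astrocytes (against 30.6%) and 1 higher (25.7%).

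The minor strands of miR-17-92 were also dimmest in neurons. miR-20a*, the passenger strand of miR-20a, was detected on 1 of 3 neuron arrays and at -5.80 to -5.52 in astrocytes, -4.60 to -4.55 in oligodendrocytes and -5.53 to -5.11 in microglia. It was 2.12-fold lower in astrocytes than in oligodendrocytes (-1.08, SE 0.0987, adjusted p = 4.07e-06). miR-17-3p was also detected on 1 of 3 neuron arrays and was 3.01-fold lower in astrocytes than in oligodendrocytes (adjusted p = 0.000281). miR-106b*, the passenger strand of miR-106b, did not pass in that pair (-0.32, adjusted p = 0.297). All neuron arrays of these strands were set to a floor placed on all levels (log2 -8.04, SD 0), which narrows the spread used in limma.

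The X-linked paralog miR-20b-5p has the seed AAAGUGC and was detected on 0 of 3 neuron, 1 of 4 astrocyte, 3 of 3 oligodendrocyte and 3 of 3 microglia arrays. It was at least 2.82-fold higher in oligodendrocytes than in neurons (adjusted p = 2.56e-06) and at least 2.65-fold higher in microglia than in neurons (adjusted p = 3.44e-06). These bounds set the mean of the bright arrays against the floor placed on all levels, -8.04 in log2, at which all 3 neuron arrays stood. The astrocyte arrays stood there too, so both types had an SD of 0. That narrows the spread used in limma, and these adjusted p-values do not measure the spread between arrays in those types. miR-363, which shares the seed of miR-25, was detected on 2 of 3 oligodendrocyte and 2 of 3 microglia arrays and on none of the others. It was the only listed relative at least 1 in log2 higher in microglia than in each other type, as were 12.7% of tested miRNAs. That call rests on the means. Microglia array 2 stood at -6.66, below oligodendrocyte arrays 1 and 3 (-6.51 and -6.62), so the arrays of these types overlapped. The neuron arrays stood at -8.04 to -7.96 and the astrocyte arrays at -8.04 to -7.20, at or near the floor.

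miR-32 and miR-92b also carry the seed AUUGCAC but lie on chromosomes 5 and 2. miR-32 was 4.13-fold lower in neurons than in oligodendrocytes (-2.05, SE 0.161, adjusted p = 3.44e-07) and 1.49-fold lower in astrocytes than in oligodendrocytes (adjusted p = 0.00658). miR-92b went the other way. It was detected on 0 of 3 microglia arrays and was at least 2.69-fold higher in neurons and at least 2.85-fold higher in astrocytes. These folds set microglia at a bound of -7.10, above their mean of -7.41, though microglia array 3 stood at -6.70. The means themselves differed 3.34-fold for neurons (limma adjusted p = 0.00672) and 3.54-fold for astrocytes (adjusted p = 0.00447).

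The miRNAs outside both lists with the profile most like each cluster were found by Pearson correlation with the cluster's mean centred level over the 13 arrays. The points share the cell types, and the values are descriptions. For miR-17-92 these were miR-350 (r = 0.942), miR-27b (0.901), miR-450a (0.894), miR-142-3p (0.864) and miR-15b (0.858), while miR-92a reached 0.992. Members of the other cluster were similarly near: miR-106b (0.927), miR-93 (0.923) and miR-25 (0.875). The most opposite profiles were those of miR-101a (-0.974), miR-26a (-0.972) and miR-323 (-0.952), all highest in neurons. miR-323 was detected on 3 of 13 arrays, with all glial means at the floor of -8.04, so its r only sets neurons against the floor.

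For miR-106b-25 the nearest were miR-15b (0.966), miR-142-3p (0.964), miR-146a (0.960), miR-21 (0.951) and miR-223 (0.911), and the most opposite were miR-383 (-0.976), miR-127 (-0.967) and miR-376a (-0.958). These opposite miRNAs were detected on 4, 7 and 4 of 13 arrays. Their glial means were -8.04 to -6.43, many near the floor of -8.04, so their r mostly sets neurons against low glial values. miR-142-3p, miR-146a and miR-223 are 3 of the 4 myeloid markers. Their summed level followed the order microglia, astrocytes, oligodendrocytes and neurons, which is the order of miR-93 and miR-25. The part of myeloid cells in these levels was not tested.

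The 2 probes of each member had the same sign for all 8 members in 5 of the 6 pairs. Between astrocytes and oligodendrocytes the probes of miR-106b gave 0.02 and -0.11 and those of miR-93 gave -0.04 and 0.27, so their signs were opposite in the pair where neither miRNA passed. The largest gap between probes was 0.317 in log2, for miR-93 between astrocytes and microglia, which is larger than the difference reported for that miRNA there.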

How the data were processed

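The deposited scanner files hold a background-subtracted intensity per spot and, in gene-level files, a total intensity and detection call per miRNA, made with Agilent Feature Extraction 9.5.3.1 per the file headers, with arrays left unscaled. Log2 values in the deposited series table were quantile normalized, as the values show. Its scale is not stated in the labels, and it served as an alternative only.

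Spots called outliers were dropped, and spots were averaged per probe and probes per miRNA. The 119 miRNAs detected on every array set a 75th percentile, by which each array was divided, with a floor at 0.38% of it (log2 -8.04). Log2 levels of the 268 miRNAs found on 3 or more arrays were fitted in R 4.3.3 with limma 3.58.1 (lmFit, eBayes) as 4 groups with 6 pairwise contrasts and Benjamini-Hochberg adjustment over all 268, at a threshold of 0.05. limma p-values measure the spread between arrays, whose number limits the precision. Every type was confined to 1 slide, so slide was no term of the fit. The within-array comparison of the clusters used an exact permutation test in scipy 1.17.1. The fit was tested on simulated data. Plots used matplotlib 3.10.9.

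The members, the related list, the markers and the tests were chosen with earlier results of these data known. Named miRNAs were the 8 members, their listed relatives, and for each cluster the 5 miRNAs with the highest and the 3 with the lowest correlation. Alternatives changed background correction, scaling, probe summary, floor, filter, eBayes options, the groups fitted, the replicate block and each array. No sample column was left unused, and no 2 arrays of a type held identical values.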

Additional observations from a re-analysis of the deposited data

How the results depend on the processing

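Of 48 differences between types in the 8 members, 40 passed, and 27 alternative settings were run. All 8 members stayed below 0 in neurons against each other type in every setting. The counts lower in neurons stayed at 8 when any 1 array was left out, and were lowest (7, 6 and 6 for astrocytes, oligodendrocytes and microglia) without scaling. The median of all miRNAs in neurons minus astrocytes, oligodendrocytes and microglia moved from 0.54, 0.79 and 0.58 to -0.27, -0.07 and -0.38 with scaling over all miRNAs, -0.32, 0.00 and -0.25 with quantile normalization, 0.85, 1.19 and 1.5 without scaling, and -0.28, -0.08 and -0.15 in the deposited table. The cluster comparison called 13 to 14 of 15 pairs.

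The differences among glia were less stable. Members higher in astrocytes than in oligodendrocytes were 0 with normexp, scaling over all miRNAs and no scaling, 2 with quantile normalization, the brightest probe, the deposited table and a fit of the 2 groups, and 1 to 2 with single arrays left out. Members higher in oligodendrocytes than in microglia were 0 with normexp, scaling over all miRNAs, the brightest probe, no filter, a fit of the 2 groups and oligodendrocyte array 2 and astrocyte array 3 both left out, 2 with quantile normalization and the deposited table, and 0 to 5 with single arrays left out. Without scaling 0 members were lower in astrocytes than in oligodendrocytes or microglia, or in oligodendrocytes than in microglia.

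Direction turned in 20 values, 7 of them called, all 7 without scaling. Without scaling astrocytes minus microglia was 0.37 for miR-106b, 0.10 for miR-17-5p, 0.10 for miR-19a, 0.028 for miR-20a, 0.53 for miR-25 and 0.37 for miR-93, oligodendrocytes minus microglia was 0.29 for miR-106b, 0.10 for miR-25 and 0.066 for miR-93, and astrocytes minus oligodendrocytes was 0.076 for miR-106b. The last was 0.025 with the brightest probe, -0.11 to 0.10 with single arrays left out (highest without oligodendrocyte array 2) and 0.12 without both that array and astrocyte array 3. Oligodendrocytes minus microglia was -0.092 (miR-18a) and -0.0019 (miR-19b) with scaling over all miRNAs, -0.069 and -0.027 (miR-18a) with quantile normalization and the deposited table, and, with single arrays left out, -0.13 to 0.34 (miR-18a) and -0.002 to 0.34 (miR-20a), lowest without microglia array 2. miR-25 in astrocytes minus microglia was 0.027 in the deposited table. The cause was not tested.

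Arrays of the same replicate number did not deviate together (r -0.34 to 0.20, over 0.1 in 3 of 18 pairs). With the replicate number as a block, 0 members were higher in oligodendrocytes than in microglia, and miR-106b between astrocytes and microglia had an adjusted p of 0.118.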
